A study of Homo sapiens with 12 samples.

Results

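The 5 genes described here belong to the plasminogen activation system, also called the urokinase system: the proteases PLAU (urokinase) and PLAT (tissue-type plasminogen activator), the urokinase receptor PLAUR, and the inhibitors SERPINE2 (protease nexin-1) and SERPINB2 (plasminogen activator inhibitor type 2). They were taken by gene symbol from a table of 60664 genes, and all 5 were among the 17544 genes with enough counts to be tested. MDA-MB-231 is a human triple-negative breast cancer line, labelled wild type. Cells were grown in flasks in high-glucose DMEM with fetal bovine serum, moved for 24 h to medium of pH 7.4, pH 6.9 or pH 6.4, and detached with an enzyme before RNA was taken. Each medium had 4 libraries, numbered as repeats 1 to 4. The sample labels give pH 6.9 for the intermediate medium while the treatment protocol gives pH 6.7. The name pH 6.9 is kept here. No label states that repeats were separate cultures, so the p-values measure only the spread between these samples, which may be technical. The title of the study names acidosis, hypoxia and the dissemination of cancer cells. The libraries described here differ by label only in the pH of the medium.

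Both activators are serine proteases that cut plasminogen into plasmin, which digests fibrin and matrix proteins and activates other enzymes and growth factors. Urokinase binds PLAUR, a lipid-anchored receptor of the Ly6 domain family, which holds the protease at the cell surface, while tissue-type activator acts mainly on fibrin. Serpins stop both by forming a covalent complex with the protease, and receptors such as LRP1 clear these complexes. MDA-MB-231 is known for its high urokinase and receptor expression.

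At pH 6.4 PLAUR RNA was 2.08-fold its level at pH 7.4, and SERPINB2, which was close to the detection limit at pH 7.4, was higher in each library of pH 6.4. SERPINE2 was lower than at pH 7.4 in both acid media, with the lower mean at pH 6.9, and the acid media did not differ from each other at the threshold. PLAT was higher at pH 6.4 than at pH 6.9, and neither of those media differed from pH 7.4 for PLAT at the threshold. PLAU, which with PLAT had the highest levels of the 5 per length, did not pass the test in the fit of 12 libraries that left the repeat numbers out. With the repeat numbers in the fit, PLAU passed against pH 7.4 in both acid media and PLAT did at pH 6.4. CPM are TMM-scaled counts set to the same total in each library. A gene was called where edgeR's quasi-likelihood test gave a Benjamini-Hochberg adjusted p under 0.05 over the 17544 genes. Between pH 6.4 and pH 7.4, 3 of the 5 genes were called, 2 higher and 1 lower, against 30.3% of tested genes in either direction, 15.6% higher and 14.7% lower. Between pH 6.9 and pH 7.4, 1 of 5 was called, as lower, against 0.724% of tested genes in either direction, 0.313% higher and 0.41% lower. Between pH 6.4 and pH 6.9, 2 of 5 were called, both higher, against 17% in either direction, 8.83% higher and 8.2% lower. The 5 genes were chosen with earlier results of these data known, so these shares are no test of the set.

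**Figure D1:**
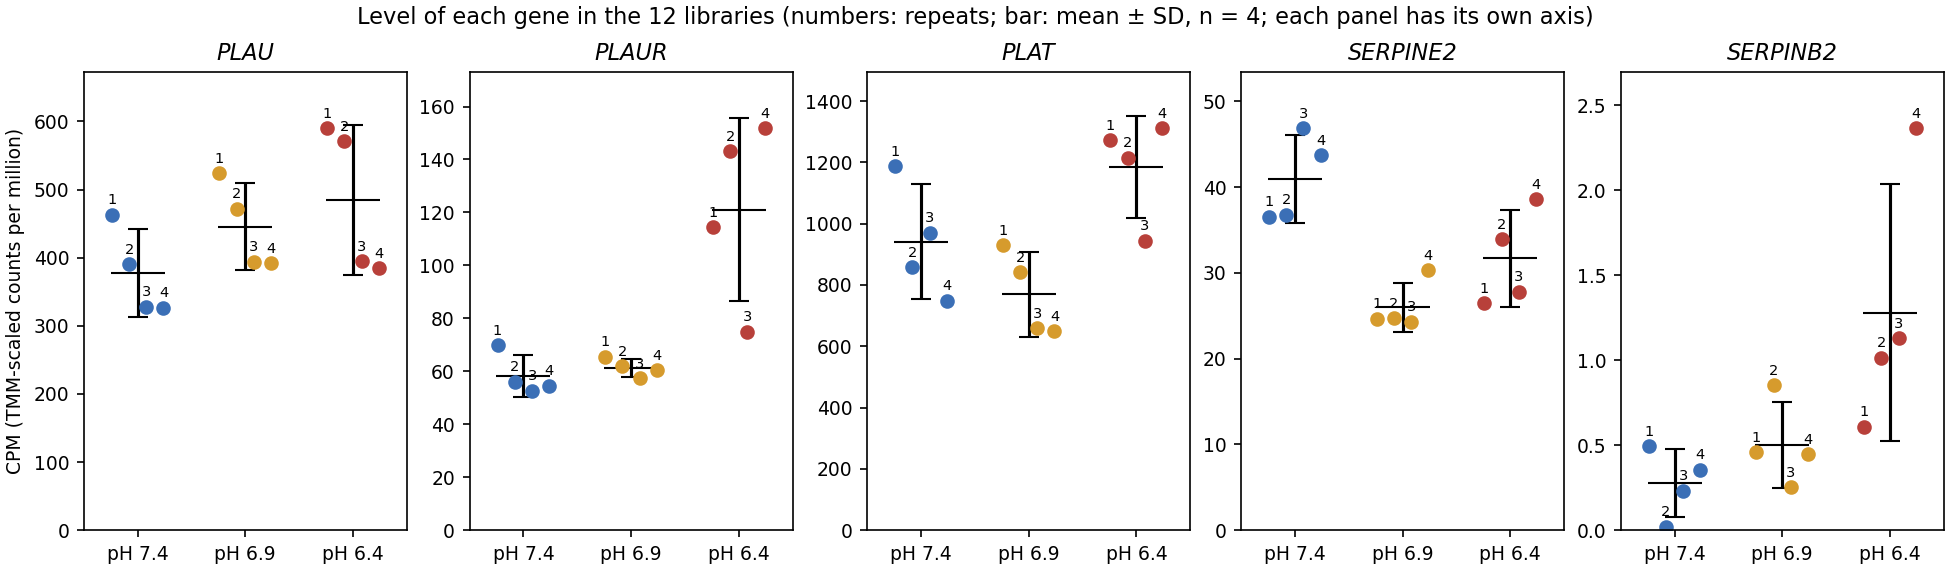
Level of each of the 5 genes in the 12 libraries, as CPM on a linear axis that starts at 0 and differs between panels. Points are libraries, numbers are repeats and bars are the mean ± SD of 4 libraries. PLAUR at pH 6.4 lies above both other media, SERPINE2 at pH 6.9 lies below pH 7.4, and the PLAU libraries of the 3 media overlap.

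Total counts per library ran from 21060767 to 50643233. Repeat 1 at pH 7.4 detected 17841 genes and repeat 2 at pH 6.9 detected 21628, while the other libraries detected from 23113 to 27384. Without these 2 libraries, 3 of the 5 genes were called higher (PLAUR, PLAT and SERPINB2) and 1 lower (SERPINE2) at pH 6.4 than at pH 7.4, against 30.6% of the 17754 genes tested in that setting, 15.5% higher and 15.1% lower. Counts of called genes over the whole table depended on single libraries: the count for pH 6.9 against pH 7.4 was 127 and ran from 39 without repeat 3 at pH 7.4 to 306 without repeat 3 at pH 6.4, and that for pH 6.4 against pH 6.9 was 2988 and ran from 1171 without repeat 2 at pH 6.4 to 4944 without repeat 3 at pH 6.4. When scaled by library size alone, 2137 genes were higher and 3159 lower at pH 6.4 than at pH 7.4 in place of 2737 and 2584, and 1084 were higher and 1756 lower than at pH 6.9 in place of 1550 and 1438. In bulk RNA, fewer cells of a kind and less RNA per cell cannot be told apart. The marker genes of the line (VIM, CD44, KRT18, AXL and MSN) summed to 4676 to 4761 CPM at pH 7.4, 4695 to 5272 at pH 6.9 and 5605 to 7168 at pH 6.4. They did not all move the same way. Of the 5, 4 were called higher at pH 6.4 than at pH 7.4, against 15.6% of all tested genes. KRT18 was called lower, by a log2 change of -0.59 (adjusted p = 0.000614), against 14.7%. Of endothelial markers, which accompany PLAT, CDH5, VWF and TEK were under 1 CPM, and the sums were 9.54 to 17.3, 11.1 to 14.1 and 13.5 to 17.9 CPM. KDR, another endothelial marker, was at means of 4.15, 4.71 and 7.83 CPM and was called higher at pH 6.4 than at pH 7.4, by a log2 change of 0.91 (adjusted p = 0.0311), and PECAM1 was at 0.01 (adjusted p = 0.978). Luminal markers summed to 42.8 to 51.0, 42.2 to 47.5 and 40.8 to 46.6 CPM, with ESR1 and PGR under 1 CPM. These sums hide opposite calls. Of the 4 tested, 1 was called higher and 1 lower at pH 6.4 than at pH 7.4, against 15.6% and 14.7% of all tested genes. ERBB3 had a log2 change of 0.81 (adjusted p = 0.00622), from a mean of 8.35 to 14.7 CPM. CDH1 had a log2 change of -1.76 (adjusted p = 0.00776), from a mean of 1.77 to 0.52 CPM. The markers of macrophages and fibroblasts are given beside the genes they concern. The part of marker genes in the results was not tested.

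PLAU (ENSG00000122861) lies on chromosome 10 at 73909177 to 73917497 on the forward strand of GRCh38, and its protein is the protease that starts plasmin formation at the cell surface. The antisense gene C10orf55 shares exon bases with it. Its counts were 40 to 126 per library, and whether the counting used strand is unknown here. At pH 7.4 PLAU was at 463, 390.3, 328 and 327 CPM in repeats 1 to 4. At pH 6.9 it was at 524, 472, 394 and 392 CPM, and at pH 6.4 at 589.6, 571, 394 and 384 CPM. Repeats 1 and 2 were the higher libraries in each medium, and the media overlapped. The means were 377 ± 64.4 (SD, n = 4), 446 ± 64.4 and 485 ± 110.5 CPM, so the order of the means followed the acidity, and libraries of neighbouring media in that order overlapped. Among the libraries of each repeat number, that of pH 7.4 was the lowest in 4 of 4. The test left the repeat numbers out. The fitted log2 change was 0.36 at pH 6.4 against pH 7.4 (SE 0.16, 95% interval 0.02 to 0.70, adjusted p = 0.0981), 0.24 at pH 6.9 against pH 7.4 (interval -0.10 to 0.58, adjusted p = 0.616) and 0.12 at pH 6.4 against pH 6.9 (interval -0.22 to 0.46, adjusted p = 0.653).

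In the fit that left the repeat numbers out, the PLAU comparison of pH 6.4 with pH 7.4 sat near the threshold. With the repeat number in the fit, PLAU passed (log2 change 0.35, SE 0.06, adjusted p = 0.000593). Without it, PLAU passed when repeat 1 at pH 7.4 (log2 change 0.48, adjusted p = 0.0424) or repeat 3 at pH 6.4 (0.45, adjusted p = 0.0382) was left out. Within repeats 1 and 2 alone the change was 0.45 (adjusted p = 0.0122), and within repeats 3 and 4 it was 0.26 (adjusted p = 0.0819). The labels do not name these pairs of repeats as a batch.

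PLAT (ENSG00000104368), whose protein cuts plasminogen mainly on fibrin clots, lies on chromosome 8 at 42175233 to 42207724 on the reverse strand. It gave 57.3 to 69.4% of the counts of the 5 genes in a library. At pH 7.4 it was at 1188, 859, 971 and 748 CPM, at pH 6.9 at 929, 841, 659.7 and 649 CPM, and at pH 6.4 at 1272, 1215, 944 and 1310.5 CPM. The lowest library of pH 6.4 was above the highest of pH 6.9, and pH 7.4 overlapped both. The means were 941 ± 188 (SD, n = 4), 769.6 ± 138 and 1185 ± 165 CPM, so the order was pH 6.4, pH 7.4, pH 6.9. PLAT rose from pH 6.9 to pH 6.4 by a log2 change of 0.62 (SE 0.15, 95% interval 0.30 to 0.95, 1.54-fold, adjusted p = 0.0153). The call was lost without repeat 3 at pH 6.9 (0.55, adjusted p = 0.0517) and without repeat 4 at pH 6.4 (0.57, adjusted p = 0.0547). With repeats 3 and 4 alone it was 0.80 (adjusted p = 0.213).

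Against pH 7.4, PLAT differed by 0.33 at pH 6.4 (interval 0.01 to 0.66, adjusted p = 0.116) and by -0.29 at pH 6.9 (interval -0.62 to 0.04, adjusted p = 0.497). At pH 6.4, 3 of 4 libraries were above every pH 7.4 library, and at pH 6.9, 2 of 4 were below every one. Against the pH 7.4 library of the same repeat number, PLAT was higher at pH 6.4 in 3 of 4 and lower at pH 6.9 in 4 of 4, and the test left these numbers out. The pH 6.4 comparison passed without repeat 1 at pH 7.4 (0.47, adjusted p = 0.0338) or repeat 3 at pH 6.4 (0.43, adjusted p = 0.0362), and without both libraries of few detected genes (0.47, adjusted p = 0.0391). With the repeat number in the fit it passed at 0.34 (adjusted p = 0.0318), and the pH 6.9 comparison did not (-0.29, adjusted p = 0.181). The 3 comparisons share libraries, and their values are given side by side for that reason.

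PLAUR (ENSG00000011422), the urokinase receptor, lies on chromosome 19 at 43646095 to 43670547 on the reverse strand. A small RNA pseudogene in one of its introns, RN7SL368P, had 0 to 9 counts per library. PLAUR was at 69.9, 56.1, 52.6 and 54.6 CPM at pH 7.4 and at 65.5, 61.9, 57.3 and 60.5 CPM at pH 6.9. At pH 6.4 it was at 115, 143, 75.0 and 152 CPM. Each of the 4 libraries of pH 6.4 was above each of the 8 others, and repeat 3 was the lowest of the 4. Libraries did not overlap for 2 of the 5 genes between pH 6.4 and pH 7.4, 1 between pH 6.9 and pH 7.4 and 2 between pH 6.4 and pH 6.9. The same held for 27.9% of tested genes between pH 6.4 and pH 7.4, 10.1% between pH 6.9 and pH 7.4 and 20.4% between pH 6.4 and pH 6.9.

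The means of PLAUR were 58.3 ± 7.88 (SD, n = 4), 61.3 ± 3.39 and 121 ± 34.6 CPM. PLAUR rose 2.08-fold from pH 7.4 to pH 6.4, a log2 change of 1.05 (SE 0.17, 95% interval 0.69 to 1.42, adjusted p = 0.0004996). From pH 6.9 to pH 6.4 it rose 1.97-fold, a log2 change of 0.98 (SE 0.17, interval 0.62 to 1.34, adjusted p = 0.00415). From pH 7.4 to pH 6.9 the change was 0.07 (interval -0.29 to 0.43, adjusted p = 0.928), so a change larger than 0.43 upward lay outside the interval of that step. Both calls at pH 6.4 held with each of the 12 libraries left out, over log2 changes of 0.93 to 1.23 against pH 7.4 and 0.85 to 1.15 against pH 6.9. With repeats 3 and 4 alone, which leaves 2 libraries per medium, the changes were 1.09 (adjusted p = 0.0579) and 0.96 (adjusted p = 0.215). The median absolute log2 change over tested genes was 0.34 between pH 6.4 and pH 7.4 and 0.27 between pH 6.4 and pH 6.9.

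SERPINB2 (ENSG00000197632) encodes a serpin that inhibits urokinase and is largely kept inside the cell. It lies on chromosome 18 at 63871692 to 63903890 on the forward strand, in a cluster of related serpins, and SERPINB10 on the same strand shares exon bases with it but had at most 1 count in a library. SERPINB2 had 17, 1, 5 and 16 counts at pH 7.4, 23, 43, 7 and 17 at pH 6.9 and 25, 47, 48 and 69 at pH 6.4. A count of 1 has a 95% Poisson interval of 0.0253 to 5.57 and a count of 69 one of 53.7 to 87.3, which covers counting error only. In CPM these were 0.494, 0.0207, 0.233 and 0.357, then 0.458, 0.853, 0.252 and 0.448, then 0.610, 1.01, 1.13 and 2.36. Each pH 6.4 library was above each pH 7.4 library, and pH 6.9 overlapped both.

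The means of SERPINB2 were 0.276 ± 0.201 (SD, n = 4), 0.503 ± 0.252 and 1.28 ± 0.756 CPM. It rose 4.61-fold from pH 7.4 to pH 6.4, a log2 change of 2.21 with a wide 95% interval of 0.79 to 3.62 (SE 0.66, adjusted p = 0.0213). The call was lost without repeat 3 at pH 7.4 (2.15, adjusted p = 0.0511) and without repeat 4 at pH 6.4 (1.74, adjusted p = 0.0897), and with repeats 1 and 2 alone (1.70, adjusted p = 0.366). From pH 7.4 to pH 6.9 the change was 0.90 (interval -0.53 to 2.32, adjusted p = 0.675) and from pH 6.9 to pH 6.4 it was 1.31 (interval -0.02 to 2.65, adjusted p = 0.167). A stricter filter on low counts removed the gene. Macrophages are a known source of PLAUR and SERPINB2, and their 5 markers summed to 8.41 to 15.1 CPM at pH 7.4, 8.87 to 14.2 at pH 6.9 and 3.15 to 8.69 at pH 6.4. The defining markers PTPRC, AIF1 and CD163 were under 1 CPM. Of the 3 tested, 1 was called lower at pH 6.4 than at pH 7.4, against 14.7% of all tested genes. This was CD14, with a log2 change of -1.07 (adjusted p = 0.0102).

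PLAUR and SERPINB2 were the genes of the set that rose at pH 6.4 against pH 7.4, and the stretches before their starts are shown because both held a match to the AP-1 motif TGANTCA, the binding sequence of FOS and JUN proteins. The sequences come from RefSeq on GRCh38.p14, where 4 of the 5 genes matched the table of promoters (PLAU, PLAUR, SERPINE2 and SERPINB2). They are written 5′ to 3′ on the strand of the gene, in lower case with the motif in capitals. The first, chr19:43670338-43670367 on the reverse strand, runs from 198 to 169 bases before the PLAUR start. The other, chr18:63887591-63887690 on the forward strand, runs from 114 to 15 bases before the SERPINB2 start and also holds a TATA box in capitals.
PLAUR: atcacaactccaTGAGTCAgggccgagcca
SERPINB2: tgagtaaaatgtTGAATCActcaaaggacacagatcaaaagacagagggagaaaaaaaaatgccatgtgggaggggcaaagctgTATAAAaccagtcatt

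Both stretches lie inside the gene bounds given above, which include transcripts that start further upstream. Searched on both strands in the 250 bases before the start, TGANTCA was in 6.57% of 35116 RefSeq promoters, the TATA box TATAAA in 10.7%, the GC box GGGCGG in 42.6% and an NF-kB consensus in 22.6%. PLAUR held TGAGTCA at 186 to 180 bases and the NF-kB consensus at 96 to 87 bases before its start. SERPINB2 held TGAATCA at 102 to 96 bases and TATAAA at 30 to 25 bases before its start. PLAU has 2 starts in the table. The 250 bases before 1 of them held none of the 4 motifs, and those before the other held 3 GC boxes, shown in capitals for chr10:73911052-73911102 on the forward strand, 80 to 30 bases before that start.
PLAU: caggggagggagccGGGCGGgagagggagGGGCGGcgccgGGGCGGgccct

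SERPINE2 also has 2 starts, 1 with a GC box at 50 to 45 bases before it and 1 with GC boxes on the opposite strand at 230 to 225 and 183 to 178 bases. None of the 250-base windows of PLAU and SERPINE2 held TGANTCA or TATAAA. Bases further upstream were not searched and PLAT had no entry, so a motif outside these windows would not be seen. The motifs do not overlap each other in the windows. A match is a run of letters and not a measured site.

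SERPINE2 (ENSG00000135919) encodes a secreted serpin that inhibits urokinase, tissue-type activator and thrombin. It lies on chromosome 2 at 223975112 to 224039319 on the reverse strand. It was at 36.5, 36.8, 46.8 and 43.7 CPM at pH 7.4, at 24.6, 24.7, 24.3 and 30.3 CPM at pH 6.9 and at 26.5, 33.9, 27.8 and 38.6 CPM at pH 6.4. The pH 6.9 libraries were all below those of pH 7.4, and 3 of 4 at pH 6.4 were. Between the acid media, 2 of 4 libraries at pH 6.4 were above every library at pH 6.9.

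The means of SERPINE2 were 41.0 ± 5.14 (SD, n = 4), 25.99 ± 2.88 and 31.7 ± 5.61 CPM, so the order was pH 7.4, pH 6.4, pH 6.9. From pH 7.4 to pH 6.9 it fell 1.575-fold, a log2 change of -0.655 (SE 0.13, 95% interval -0.94 to -0.37, adjusted p = 0.0381). From pH 7.4 to pH 6.4 it fell 1.29-fold, a log2 change of -0.37 (SE 0.13, interval -0.65 to -0.09, adjusted p = 0.0460). Between pH 6.9 and pH 6.4 the change was 0.28 (interval 0.00 to 0.57, adjusted p = 0.156). SERPINE2 was 1 of 72 genes called lower at pH 6.9 than at pH 7.4.

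Fibroblasts are a known source of SERPINE2, and their 5 markers summed to 69.04 to 103 CPM at pH 7.4, 52.8 to 76.9 at pH 6.9 and 35.3 to 48.9 at pH 6.4, with the defining marker DCN under 1 CPM. The 4 tested markers COL1A1, COL1A2, LUM and PDGFRB were detected, at means of 15.3, 40.9, 7.43 and 21.7 CPM at pH 7.4. All 4 were called lower at pH 6.4 than at pH 7.4, against 14.7% of all tested genes. Between pH 6.9 and pH 7.4, 0 were called, against 0.724% in either direction. Their part in the SERPINE2 result was not tested.

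Both SERPINE2 calls were close to the threshold and depended on which libraries were used, while the sign held throughout. The call at pH 6.9 was lost without repeat 1, 2, 3 or 4 at pH 7.4 or repeat 1, 2 or 3 at pH 6.9, over log2 changes of -0.70 to -0.58 and adjusted p-values of 0.0542 to 0.165, and it held without the other 5 libraries. The call at pH 6.4 was lost without repeat 2, 3 or 4 at pH 7.4, repeat 1, 2 or 3 at pH 6.9 or repeat 1, 2 or 3 at pH 6.4, over log2 changes of -0.42 to -0.29 and adjusted p-values of 0.05003 to 0.146, and it held without the other 3. With DESeq2 size factors (adjusted p = 0.0544), with no filter on low counts (0.0513) or with only the libraries of the media compared (0.0847), the call at pH 6.4 was also lost. Both calls were lost with repeats 1 and 2 alone (-0.57, adjusted p = 0.259, at pH 6.9 and -0.27, adjusted p = 0.228, at pH 6.4) and with repeats 3 and 4 alone (-0.73, adjusted p = 0.469, and -0.44, adjusted p = 0.156). Without the 2 libraries of few detected genes the change was -0.68 (adjusted p = 0.18) at pH 6.9 and -0.42 (adjusted p = 0.0485) at pH 6.4.

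**Figure D2:**
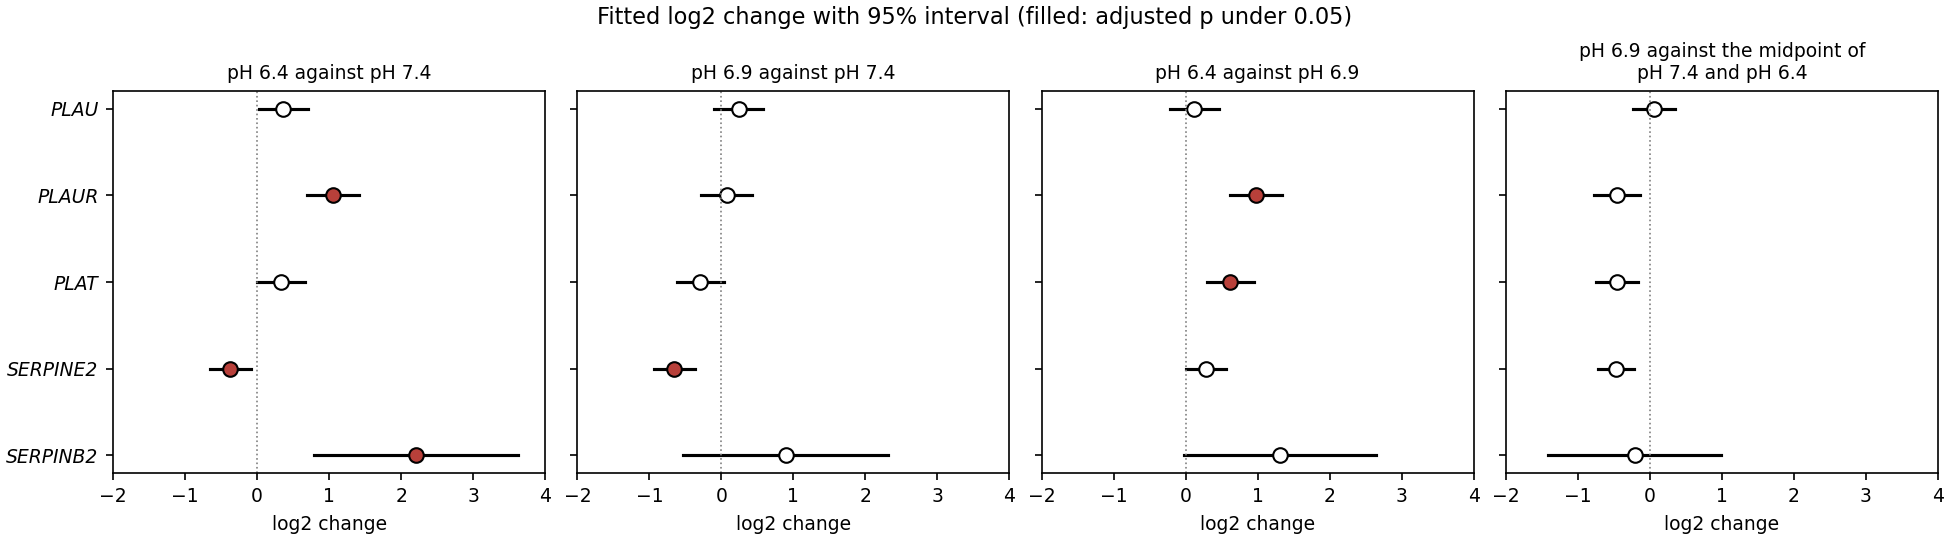
Fitted log2 change of each gene in 4 comparisons of the media, on a log2 axis where 0 is no change. Points are estimates from 12 libraries, lines are 95% intervals and filled points have an adjusted p under 0.05. PLAUR has changes of 1.05 and 0.98 in the comparisons with pH 6.4, SERPINE2 is filled in both comparisons with pH 7.4, and the SERPINB2 intervals are the widest of the 5.

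**Figure D3:**
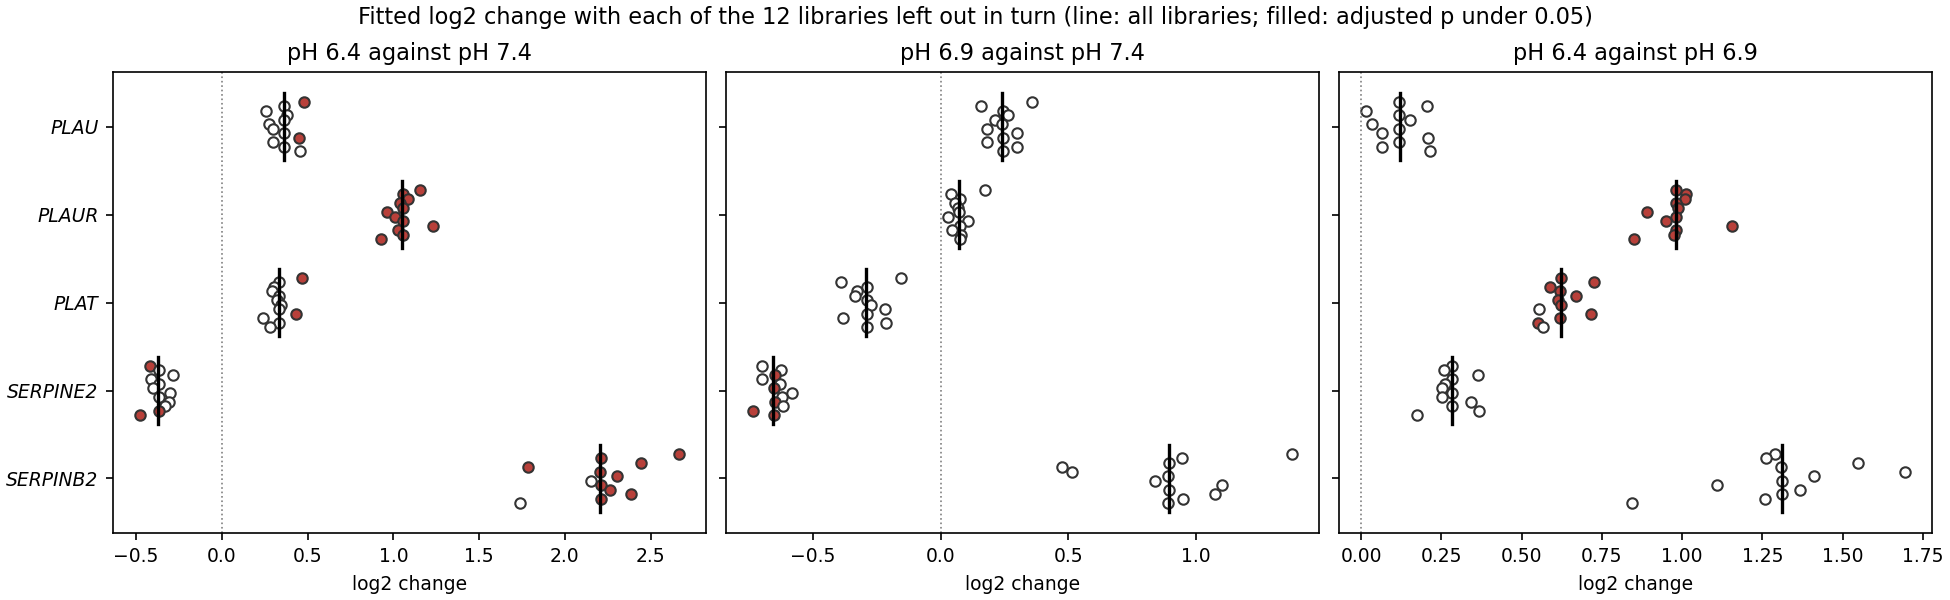
Log2 change of each gene with each of the 12 libraries left out in turn (circles, filled where the adjusted p is under 0.05), with all libraries as a vertical line. The axes differ between panels. All 12 PLAUR circles are filled in both comparisons with pH 6.4, while 3 of 12 SERPINE2 circles are filled for pH 6.4 against pH 7.4 and 5 of 12 for pH 6.9 against pH 7.4.

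A 4th comparison set pH 6.9 against the midpoint of pH 7.4 and pH 6.4, which asks how far the intermediate medium lay from the mean of the others on the log2 scale. It does not ask whether that medium lay between them: the means of PLAU, PLAUR and SERPINB2 at pH 6.9 did, and those of PLAT and SERPINE2 did not. In edgeR's test 0 of the 5 genes and 0 of 17544 tested genes were called, a background of 0%. At an unadjusted p under 0.05, 2025 genes (11.5%) passed, and DESeq2 called 90. PLAUR was below the midpoint by a log2 difference of -0.45 (interval -0.77 to -0.14, adjusted p = 0.36), PLAT was at -0.46 (interval -0.75 to -0.17, adjusted p = 0.357) and SERPINE2 at -0.47 (interval -0.72 to -0.22, adjusted p = 0.323). PLAU lay at 0.06 (interval -0.23 to 0.35, adjusted p = 0.912) and SERPINB2 at -0.21 (interval -1.41 to 1.00, adjusted p = 0.93). Without repeat 3 at pH 6.4, the test called 1109 genes, PLAUR (-0.54, adjusted p = 0.00764), PLAT (-0.50, adjusted p = 0.0314) and SERPINE2 (-0.50, adjusted p = 0.024) among them. The sign of PLAU turned without repeat 1 at pH 6.9 (-0.02), and that of SERPINB2 without repeat 1 at pH 7.4 (0.04) or repeat 4 at pH 6.4 (0.02).

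Levels of different genes were compared per kilobase of annotated exon (2950 bases for PLAU, 4457 for PLAUR, 6618 for PLAT, 8891 for SERPINE2 and 2748 for SERPINB2). These lengths take in the exons of all annotated transcripts, so the order of genes per kb depends on them. On this scale PLAT was at 142 ± 28.4 (SD, n = 4), 116 ± 20.9 and 179 ± 25.0 CPM per kb at pH 7.4, pH 6.9 and pH 6.4. PLAU was at 128 ± 21.8, 151 ± 21.8 and 164 ± 37.5 CPM per kb. Among 17337 genes the level of PLAT ranked 173, 232 and 135 and that of PLAU 205, 160 and 155, so both proteases were within the highest 1.34% in each medium. The receptor was at 13.1 ± 1.77, 13.8 ± 0.761 and 27.2 ± 7.76 CPM per kb and moved from rank 3684 at pH 7.4 to rank 1782 at pH 6.4. SERPINE2 was at 4.61 ± 0.578, 2.92 ± 0.324 and 3.56 ± 0.631 CPM per kb, and SERPINB2 at 0.1004, 0.183 and 0.466 CPM per kb. The levels per kb of the activators were thus above that of the receptor, and the receptor above both serpins, in each medium. The 5 genes together took 0.116 to 0.197% of the counts of a library.

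Ratios within a library describe the balance of protease, receptor and inhibitor RNA, and carry no test here. They restate the changes given above for the same genes and libraries. The share of other gene pairs whose ratios separate the media was not computed. The ratio of PLAU to PLAUR per kb was 9.05 to 10.5 in the pH 7.4 libraries, 9.79 to 12.1 at pH 6.9 and 3.83 to 7.95 at pH 6.4, and the pH 6.4 range lay below the other 2. The ratio of PLAUR to SERPINE2 was 2.24 to 3.82, then 3.98 to 5.30, then 5.38 to 8.63, with no overlap between the 3 media. The gaps were narrow, with nearest libraries at 3.82 and 3.98 and at 5.30 and 5.38. The ratio of PLAT to PLAU was 0.981 to 1.32 at pH 7.4, 0.738 to 0.794 at pH 6.9 and 0.949 to 1.52 at pH 6.4. PLAT was thus below PLAU per kb in each pH 6.9 library and in some libraries of the other media. That order rests on the exon lengths used. In CPM, the lowest PLAT library (649) was above the highest PLAU library (589.6). The ratio of PLAU to SERPINE2 was 21.1 to 38.2 at pH 7.4, 39.0 to 64.1 at pH 6.9 and 30.03 to 67.2 at pH 6.4. The ratio of PLAT to SERPINE2 was 23.0 to 43.7, 28.8 to 50.6 and 45.6 to 64.6, with pH 6.4 above pH 7.4.

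**Figure D4:**
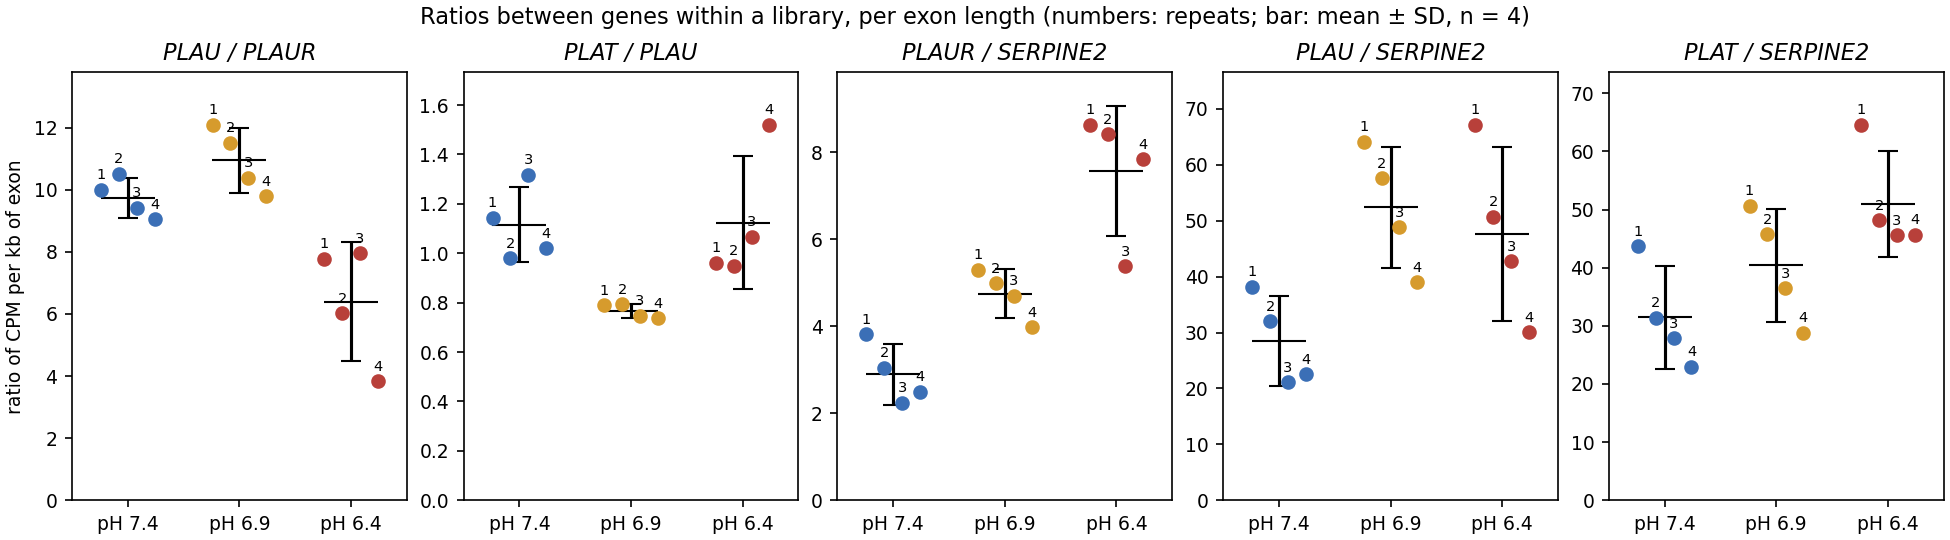
Ratios of the level per kb of exon between pairs of the genes in the same library, on linear axes from 0 that differ between panels. Points are libraries numbered by repeat and bars are the mean ± SD of 4. The PLAUR to SERPINE2 ratio does not overlap between the 3 media, with nearest libraries of pH 6.9 and pH 6.4 at 5.30 and 5.38. PLAT to PLAU is lowest at pH 6.9, at 0.738 to 0.794.

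The genes whose levels followed each member most closely over the 12 libraries were ranked by Pearson's r of log2 CPM among 10861 genes of at least 5 CPM (10862 for SERPINB2). These values describe 12 libraries that share media, repeat numbers and scaling. The closest to PLAUR were SPRYD3 (r = 0.994), ADAM19 (0.991) and TMEM214 (0.991). ADAM19, a membrane metalloprotease, had a log2 change of 1.75 at pH 6.4 against pH 7.4. The closest to PLAU were SFT2D2 (0.953), GRIPAP1 (0.935) and ALDH1A3 (0.9296), and those to PLAT were SLC26A6 (0.896), TNXB (0.892) and FTL (0.889). The closest to SERPINE2 were RELN (0.931), CDKN1C (0.915) and IDH3A (0.903), and those to SERPINB2 were KIAA0753 (0.929), ERCC1 (0.903) and EHD4 (0.886). With 1 to 69 SERPINB2 counts per library, the r values of that gene rest on few reads. KIAA0753, ERCC1 and EHD4 had log2 changes of 0.22, 0.30 and 0.23 at pH 6.4 against pH 7.4, beside 2.21 for SERPINB2. RELN, a secreted matrix glycoprotein, had log2 changes of -1.30 at pH 6.9 and -0.72 at pH 6.4 against pH 7.4, the same order of the media as SERPINE2.

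The other genes of plasminogen activation and its related families were described through 8 lists of 87 genes in all, of which 67 were tested. Between pH 6.4 and pH 7.4, 17 rose and 13 fell, 44.8% of those tested, against 30.3% of all tested genes, 15.6% higher and 14.7% lower, which is the background for each of the 8 lists. They had a median log2 change of 0.0028 beside -0.0008 over all tested genes. The lists were chosen with earlier results of these data known, and the background was not matched for level. The higher share is therefore not a result about the lists. Between pH 6.9 and pH 7.4, 0 of 67 were called in edgeR's test, 15 had an unadjusted p under 0.05 and DESeq2 called 3, against 0.724% of all genes in edgeR. Between pH 6.4 and pH 6.9, 8 rose and 5 fell, 19.4% of those tested, against 17% of all genes, 8.83% higher and 8.2% lower. Some of the genes in the lists share exon bases with another gene, among them CD59, ETV4, ETV5, ITGA5, ITGB3, LRP1, MMP1, MRC2, SERPINB8 and TGFB1, and their counts are uncertain to that extent.

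In the plasminogen cascade list, 8 of 12 genes were tested, 1 rose and 2 fell, with a median log2 change of -0.22. Without repeat 3 at pH 6.4, 0 rose and 2 fell. Plasminogen itself (PLG) had 0 counts in the pH 7.4 and pH 6.4 libraries and at most 2 in a pH 6.9 library. PLGRKT, a membrane receptor that binds plasminogen, rose by 0.55 (adjusted p = 0.0497) from a mean of 8.66 to 12.8 CPM. S100A10, which binds plasminogen as a complex with annexin A2, fell by 0.25 (adjusted p = 0.0203), from 527 to 563 CPM in the pH 7.4 libraries to 412 to 504 CPM at pH 6.4. Its partner ANXA2 was at a mean of 1625 and 1693 CPM and had a change of 0.06 (adjusted p = 0.602). ST14 (matriptase), a membrane protease that can activate the urokinase precursor, was the other gene that fell, by 0.97 (adjusted p = 0.00343). ANXA2 and ST14 were named after their values were seen.

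Among receptor partners and clearance receptors, 18 of 21 genes were tested, 5 rose and 4 fell, with a median of 0.02. ITGA5, the integrin chain that pairs with ITGB1 as the fibronectin receptor and a known partner of PLAUR, rose by 1.02 (adjusted p = 8.813e-05), from 168 to 210.3 CPM at pH 7.4 to 263 to 419 CPM at pH 6.4. ITGB3, part of the vitronectin receptor, rose by 1.31 (adjusted p = 0.00287) from a mean of 8.98 to 22.3 CPM. CAV1, the caveolae coat protein, fell by 0.77 (adjusted p = 0.000238) from a mean of 1603 to 942 CPM. FPR1, a formyl peptide receptor that signals with PLAUR, fell by 1.32 (adjusted p = 0.0259) from a mean of 9.44 to 3.76 CPM. Of the endocytic receptors that take up protease and inhibitor complexes or bind PLAUR, LRP1 fell by 0.55 (adjusted p = 0.00518), MRC2 rose by 0.68 (adjusted p = 0.000482) and VLDLR rose by 0.68 (adjusted p = 0.0024). These 3 were named after their values were seen.

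Of the 4 serpins listed here as other inhibitors of plasminogen activators, 4 were tested, 0 rose and 2 fell, with a median of -0.72. The list name is a grouping only, and inhibition of these proteases by SERPINB8 was not shown here. SERPINI1 (neuroserpin), a brain inhibitor of tissue-type activator, fell by 1.51 (adjusted p = 0.000456), from 3.92 to 7.32 CPM at pH 7.4 to 1.65 to 1.95 CPM at pH 6.4. SERPINB8 fell by 0.41 (adjusted p = 0.0380). In this list 1 gene was called without the 2 libraries of few detected genes and 1 without repeat 3 at pH 6.4. Of the 9 neighbours of SERPINB2 in its chromosome 18 cluster, 3 were tested and SERPINB8 was the 1 called, so none of the 3 rose with SERPINB2. In the same 2 settings with libraries left out, 0 of the 3 were called. SERPINB3, SERPINB4 and SERPINB10 to SERPINB13 were below the filter, with mean levels of at most 0.215 CPM in any medium.

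Of the 7 serpins of clades B, E, H and I outside the cluster, 5 were tested, 3 rose and 1 fell, with a median of 0.25. SERPINB9, an intracellular inhibitor of granzyme B, rose by 0.81 (adjusted p = 0.00037), from 76.8 to 95.3 CPM at pH 7.4 to 123 to 172 CPM at pH 6.4. SERPINB1, an inhibitor of neutrophil proteases, rose by 0.44 (adjusted p = 0.0331). SERPINH1, a collagen chaperone without protease inhibition, rose by 0.25 (adjusted p = 0.0167). Without the 2 libraries of few detected genes, and likewise without repeat 3 at pH 6.4, 2 rose and 1 fell. The other tested serpins of the 3 lists, SERPINA5, SERPINB5, SERPINB6 and SERPINB7, were not called and were named after their values were seen.

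In the Ly6 family, to which PLAUR belongs by its domains, 10 of 12 genes were tested, 1 rose and 2 fell, with a median of 0.04. CD59, a lipid-anchored inhibitor of complement, rose by 0.77 (adjusted p = 0.0113), from 307 to 450.3 CPM at pH 7.4 to 438 to 861 CPM at pH 6.4. LYPD1 fell by 1.09 (adjusted p = 0.012) and LYNX1 fell by 1.84 (adjusted p = 0.00371), both from means under 5 CPM and named after their values were seen. LY6E had a change of 0.0028 (adjusted p = 0.986) at a mean of 116 CPM in both media, also chosen after its value was seen. Without the 2 libraries of few detected genes 2 rose and 2 fell (median -0.08), and without repeat 3 at pH 6.4 2 rose and 2 fell (median -0.04).

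Of 13 factors that plasminogen activators or plasmin activate or cleave, 10 were tested, 3 rose and 2 fell, with a median of -0.09. MMP1, an interstitial collagenase whose precursor plasmin cuts, rose by 1.69 (adjusted p = 0.03) from a mean of 4.37 to 14.2 CPM. FN1 (fibronectin), a plasmin substrate, rose by 1.01 (adjusted p = 0.00319) from 639.7 to 1138 CPM at pH 7.4 to 1271 to 2327 CPM at pH 6.4. TGFB1, whose latent form plasmin can activate, rose by 0.69 (adjusted p = 0.0387). PDGFC, a growth factor that tissue-type activator cleaves, fell by 0.35 (adjusted p = 0.00545) from a mean of 166 to 131 CPM. PDGFD, which urokinase cleaves, fell by 3.45 (adjusted p = 0.0153) at means of 0.646 and 0.0542 CPM and was named after its value was seen. Without the 2 libraries of few detected genes 2 rose and 2 fell, and without repeat 3 at pH 6.4 the median was 0.0086.

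Of the 12 AP-1 and ETS factors, all were tested, 4 rose and 1 fell, with a median of 0.29. FOSL1, an AP-1 subunit of the FOS family, rose by 1.11 (adjusted p = 0.000636), from 142 to 235 CPM at pH 7.4 to 306 to 526 CPM at pH 6.4. The ETS factors ETV1, ETV5 and ETV4 rose by 0.61 (adjusted p = 7.647e-05), 0.54 (adjusted p = 0.000727) and 0.46 (adjusted p = 0.0286). ETS2 fell by 0.34 (adjusted p = 0.0318), named after its value was seen. FOS was at -0.64 (adjusted p = 0.106), JUN at -0.14 (adjusted p = 0.481) and JUNB at 0.44 (adjusted p = 0.065), also named after their values were seen. Without the 2 libraries of few detected genes, 3 genes of this list rose and 0 fell.

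**Figure D5:**
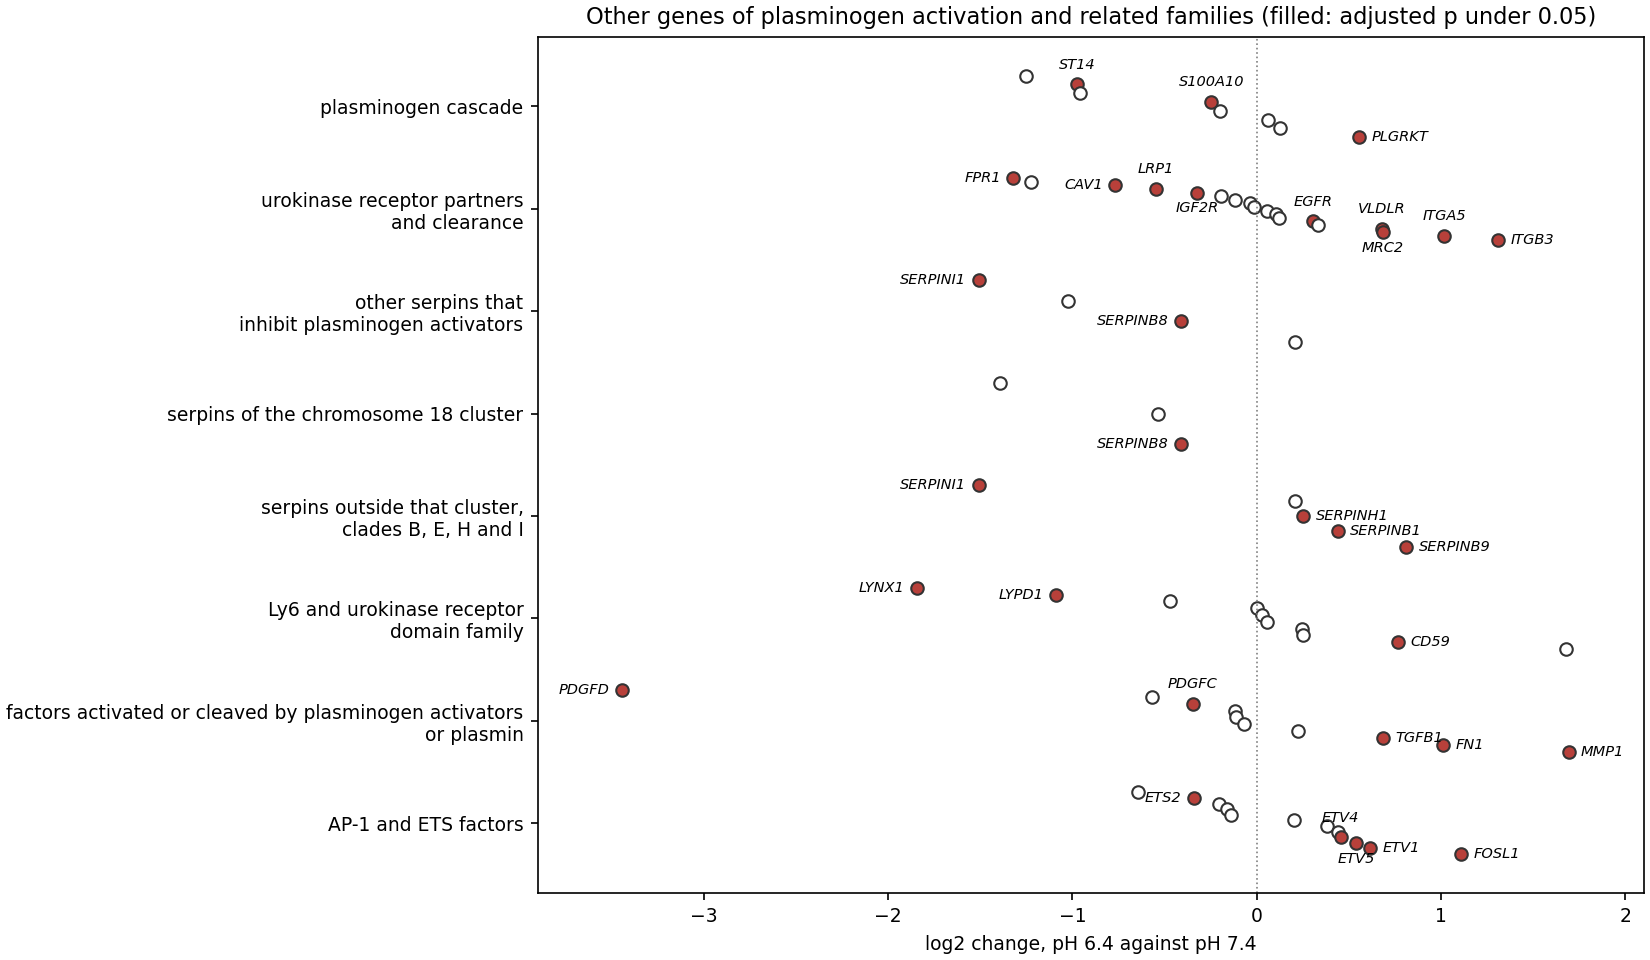
Log2 change between pH 6.4 and pH 7.4 of the tested genes of 8 lists, on a log2 axis where 0 is no change. Each circle is a gene, filled and named where the adjusted p is under 0.05, and SERPINB6, SERPINB8 and SERPINI1 stand in more than 1 list. Of the 67 genes, 17 rose and 13 fell, and the AP-1 and ETS list has 4 that rose and 1 that fell.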

How the data were processed

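The submitters deposited 1 table of raw counts of reads per gene for 12 libraries. Libraries were stranded and poly(A)-selected, per the labels' protocols. STAR, featureCounts and the builds GRCh38.p13 and hg38 are named, per the submitters' processing notes. Tool versions, strandedness of counting and handling of multimapping reads are unknown here. Of 60664 genes, 60463 matched the symbol table and 58396 matched GENCODE 29, the source of coordinates and exon lengths.

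Counts were fitted in R 4.3.3 with edgeR 4.0.16: filterByExpr, TMM scaling, 1 term per medium over all 12 libraries (9 residual degrees of freedom) and the robust quasi-likelihood test, with Benjamini-Hochberg adjustment over 17544 genes. CPM are TMM-scaled. Log2 changes were not shrunk, and intervals use the moderated degrees of freedom. DESeq2 1.42.0, other scalings and filters, subsets of libraries and a replicate block were alternatives. The test was tried on simulated counts.

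The members and lists were chosen with earlier results of these data known. Per list, the rule named up to 4 called genes of the largest absolute change at pH 6.4 against pH 7.4, provided that the mean reached 5 CPM in 1 of those media. For likeness it named 3 genes per member.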

Additional observations from a re-analysis of the deposited data

Results flagged for a closer look

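At pH 6.9, SERPINE2 in repeat 4 was at 30.3 CPM (30.299), apart from the other 3 libraries at 24.3 to 24.7 CPM. The gap divided by the range of the group was 0.935, above the 95% critical value of Dixon for 4 libraries. This was 1 of 15 groups of 4 libraries examined, and chance marks about 1 in 20. Without this library the change from pH 7.4 to pH 6.9 was larger, at -0.74 on the log2 scale.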

How the results depend on the processing

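The sign of each of the 5 genes held in every comparison with pH 7.4 and in pH 6.4 against pH 6.9 under the alternatives run, and calls moved as follows; the cause was not tested. For pH 6.4 against pH 7.4, SERPINE2 lost its call with DESeq2 size factors (log2 change -0.3595, adjusted p = 0.0544), with no filter on low counts (-0.3580, adjusted p = 0.0513), with only the libraries of the media compared (-0.3611, adjusted p = 0.0847) and in repeats 1 and 2 alone (-0.2738) or 3 and 4 alone (-0.4370). With repeats 1 and 2 alone, PLAU was called at 0.4503 and SERPINB2 was not at 1.7029. With repeats 3 and 4 alone, PLAUR was not called at 1.0914 and the count of genes was 1528. PLAT was called at 0.4675 without repeat 1 at pH 7.4 and repeat 2 at pH 6.9.

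For pH 6.9 against pH 7.4, the count of called genes was 519 in DESeq2, 201 with no filter, 250 with only the libraries compared, 20 without those 2 libraries, 7 in repeats 1 and 2 alone, and 0 in repeats 3 and 4 alone. The SERPINE2 call was lost at -0.6806, -0.5656 and -0.7298 in the last 3 of these. For pH 6.4 against pH 6.9, 1906 genes were called in repeats 1 and 2 alone, and 0 in repeats 3 and 4 alone, where PLAUR at 0.9594 (adjusted p = 0.215) and PLAT at 0.8007 (adjusted p = 0.213) were not. For the midpoint, DESeq2 called 90 genes, with SERPINE2 at -0.4787 (adjusted p = 0.0301), and the fit with no filter called 13. SERPINB2 turned to 0.5417 in repeats 1 and 2 alone.

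A fit with the repeat number as a replicate block called PLAU at 0.3511 (adjusted p = 0.000593) and PLAT at 0.3433 (adjusted p = 0.0318) for pH 6.4 against pH 7.4, and PLAU at 0.2450 (adjusted p = 0.0319) for pH 6.9 against pH 7.4. It left 17 of 20 results of the 5 genes with the same call. It called 7290, 947 and 5456 genes for pH 6.4 against pH 7.4, pH 6.9 against pH 7.4 and pH 6.4 against pH 6.9. Deviations of libraries with the same number correlated at 0.0798 to 0.4705, with a median of 0.263 and above 0.1 in 11 of 12 pairs, against a median of -0.158 and 12 of 36 pairs for different numbers. Those 12 pairs of different numbers were all between repeats 1 and 2 or between repeats 3 and 4, at 0.1242 to 0.247. All pairs across these sets were negative, the highest at -0.0706. The labels do not name the sets as a batch. The best match in another medium had the same number in 18 of 24 cases. This hints at shared repeats, but the labels do not state them and the rule used here asked for all 12 pairs above 0.1, so the fit reported first has no block.

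With each of the 12 libraries left out in turn, called genes numbered 3795 to 6411, 39 to 306 and 1171 to 4944 in the same 3 comparisons and 0 to 1109 for the midpoint. For pH 6.4 against pH 7.4 the log2 changes ran from 0.2594 to 0.4770 for PLAU, 0.2387 to 0.4663 for PLAT, -0.4771 to -0.2874 for SERPINE2 and 1.7374 to 2.6643 for SERPINB2. SERPINE2 ran from -0.7355 to -0.5838 for pH 6.9 against pH 7.4, and PLAT from 0.5498 to 0.7241 for pH 6.4 against pH 6.9. For the midpoint, PLAU ran from -0.0248 to 0.1194, PLAUR from -0.5392 to -0.3880, PLAT from -0.5571 to -0.3826, SERPINE2 from -0.5516 to -0.4125 and SERPINB2 from -0.5890 to 0.0441. A stricter filter removed SERPINB2, whose counts of 1 to 69 limit its precision, and the fit with only the media compared gives no midpoint. The list counts without single libraries were chosen after seeing the data.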
